A study of Mus musculus with 32 samples.

Results

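The expression of 10 genes that mark or act in endothelial cells, the lining of blood vessels, was followed in mouse kidney around and after birth: Kdr, Flt1, Tek, Tie1, Pecam1, Cdh5, Egfl7, Emcn, Plvap and Ehd3. They were taken by gene symbol from the array's annotation, and all 10 listed genes had a value, of 18999 genes with a value in all. The data are 32 two-colour arrays of whole kidney RNA from C57BL/6 mice, an inbred strain, hybridised against a universal mouse reference RNA. Kidneys of embryonic day 19 (E19) and of postnatal days 1, 5, 7, 10, 14, 21 and 28 (P01 to P28) gave 3 arrays each, and those of postnatal days 3 and 35 gave 4 each. A growth protocol repeated across samples describes ureteral obstruction, but the source of every sample reads normal kidney, which was taken as its state. The number of animals behind the arrays of a stage is not given, so the tests measure the spread between arrays, which may in part be technical.

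A value is the log2 ratio of kidney over reference, so its size depends on how much of the transcript the reference RNA holds, and levels of different genes cannot be ranked. On every array the proximal tubule markers had a median above 0, at 5.35 to 6.60 late and 4.29 to 6.13 early, as kidney over reference would have. The scale was read as log10 from the values and converted. Were the deposited values log2 already, each change would be smaller by a factor of 3.32 with the same direction and p. Periods of stages were also compared: late (P21, P28 and P35, 10 arrays), early (E19, P01 and P03, 10 arrays) and middle (P07, P10 and P14, 9 arrays). P05 belongs to none of them. Whole kidney was measured, so fewer endothelial cells and less RNA per endothelial cell cannot be told apart.

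Endothelial cells sense vascular endothelial growth factor (VEGF) through the receptor tyrosine kinases encoded by Kdr and Flt1, and angiopoietins through the kinase encoded by Tek, which pairs with that of Tie1. In the kidney, VEGF comes largely from podocytes and tubules, and capillaries grow into the glomeruli as nephrons form, a process that in mice goes on after birth. Pecam1 and Cdh5 encode junction proteins, Emcn a surface sialomucin, Plvap the diaphragm protein of fenestrae and caveolae, Egfl7 a secreted vessel protein and Ehd3 an endocytic ATPase that in mouse kidney marks glomerular endothelium.

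The promoters of the 3 genes that differed between stages, and of Kdr, the receptor gene paired with Flt1 that did not pass the test, are shown from 250 bases before to 50 bases after the annotated start (RefSeq, build GRCm38.p6). Capitals mark AGGAAG or its reverse complement CTTCCT, a core bound by ETS-family factors, which are widely used in endothelial genes. For Egfl7, 1 of 3 windows is shown.
Egfl7, chr2:26583615-26583914, plus strand: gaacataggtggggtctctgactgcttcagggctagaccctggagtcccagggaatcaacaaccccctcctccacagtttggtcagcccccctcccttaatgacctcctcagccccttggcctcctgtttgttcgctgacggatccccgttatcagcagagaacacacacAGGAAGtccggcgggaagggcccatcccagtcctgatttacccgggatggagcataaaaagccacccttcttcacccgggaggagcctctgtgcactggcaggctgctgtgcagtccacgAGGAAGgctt
Flt1, chr5:147725962-147726261, minus strand: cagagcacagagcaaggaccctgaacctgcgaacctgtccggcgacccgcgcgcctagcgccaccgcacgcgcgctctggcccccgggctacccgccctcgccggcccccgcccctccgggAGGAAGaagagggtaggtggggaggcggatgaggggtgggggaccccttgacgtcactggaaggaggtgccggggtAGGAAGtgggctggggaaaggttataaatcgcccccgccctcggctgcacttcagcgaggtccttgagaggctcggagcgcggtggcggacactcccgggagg
Ehd3, chr17:73804591-73804890, plus strand: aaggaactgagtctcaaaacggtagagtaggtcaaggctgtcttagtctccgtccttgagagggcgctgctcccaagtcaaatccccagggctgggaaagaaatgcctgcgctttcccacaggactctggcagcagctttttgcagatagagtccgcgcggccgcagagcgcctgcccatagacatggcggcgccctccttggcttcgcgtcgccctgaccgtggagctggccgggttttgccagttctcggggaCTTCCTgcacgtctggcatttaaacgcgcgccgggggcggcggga
Kdr, chr5:75978406-75978705, minus strand: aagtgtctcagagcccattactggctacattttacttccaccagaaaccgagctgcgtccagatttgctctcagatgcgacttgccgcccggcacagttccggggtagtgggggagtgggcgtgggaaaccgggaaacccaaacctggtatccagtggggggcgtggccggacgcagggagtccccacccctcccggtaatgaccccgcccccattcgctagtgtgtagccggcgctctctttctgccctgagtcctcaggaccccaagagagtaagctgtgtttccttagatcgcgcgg
Of the 10 genes, 7 matched the promoter table, with 9 windows, as Egfl7 has 3. AGGAAG or CTTCCT was found on either strand in 6 of these 9 windows, against 35.4% of 32851 windows of all genes. The Egfl7 and Flt1 windows above hold 2 matches each, the Ehd3 window holds 1 and the Kdr window 0, while the other Egfl7 windows hold 3 and 0. For ETS factors only AGGAAG and CTTCCT were searched, so a window with 0 may hold other forms of the core. AGATAA or its reverse complement TTATCT, a core bound by GATA factors, was in 1 of the 9 windows, that of Tek, against 11.2% of all windows. A match describes letters in a window and is not evidence of binding. Egfl7 also hosts miR-126, a microRNA abundant in endothelium, at chr2:26591402-26591423 on the plus strand; its level was not analysed here, and its seed is in capitals.
mmu-miR-126a-3p: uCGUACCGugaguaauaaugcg

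From early to late stages the changes of the 10 genes were mostly small in size, over a span in which much of the kidney transcriptome changed. With stages alone in the fit, limma's moderated F test called Flt1, Egfl7 and Ehd3, 3 of 10 genes, against 43.7% of all 16335 genes tested. With the image run (described below) as a block it called 5 of 10, against 58.3%, so both counts lie near the share of all genes. Egfl7 and Ehd3 passed the F test under all 10 other settings with every array in the fit, and Flt1 under 6 of them. The range of stage means ran between 0.36 on the log2 scale for Emcn and 1.30 for Ehd3, and its median over all genes measured on every array was 0.99. In late minus early, the median size of the change was 0.18 over the 10 genes and 0.47 over all genes, and 9 of the 10 genes lay below that median of all genes. For P35 minus E19 the sizes were 0.19 and 0.59, again with 9 of 10 below. The other comparisons lay nearer to all genes. The number below was 8 for P01 minus E19, 7 for P07 minus P01 and 6 for P21 minus P07. It was 5 for P35 minus P21, with sizes of 0.21 and 0.26, and 5 for middle minus ends, with 0.15 and 0.17. Quantile normalization of the arrays changed the picture for 3 further genes, which were then called lower late than early: Kdr at -0.34 (limma adjusted p = 0.0282), Cdh5 at -0.46 (limma adjusted p = 0.0163) and Emcn at -0.42 (limma adjusted p = 0.00118). In that setting 4049 of all 16506 genes tested were called lower late. The spread between arrays of a stage, as an SD, lay between 0.22 and 0.35 for 9 of the genes and was 0.59 for Pecam1, against a median of 0.36 over all genes.

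**Figure D1:**
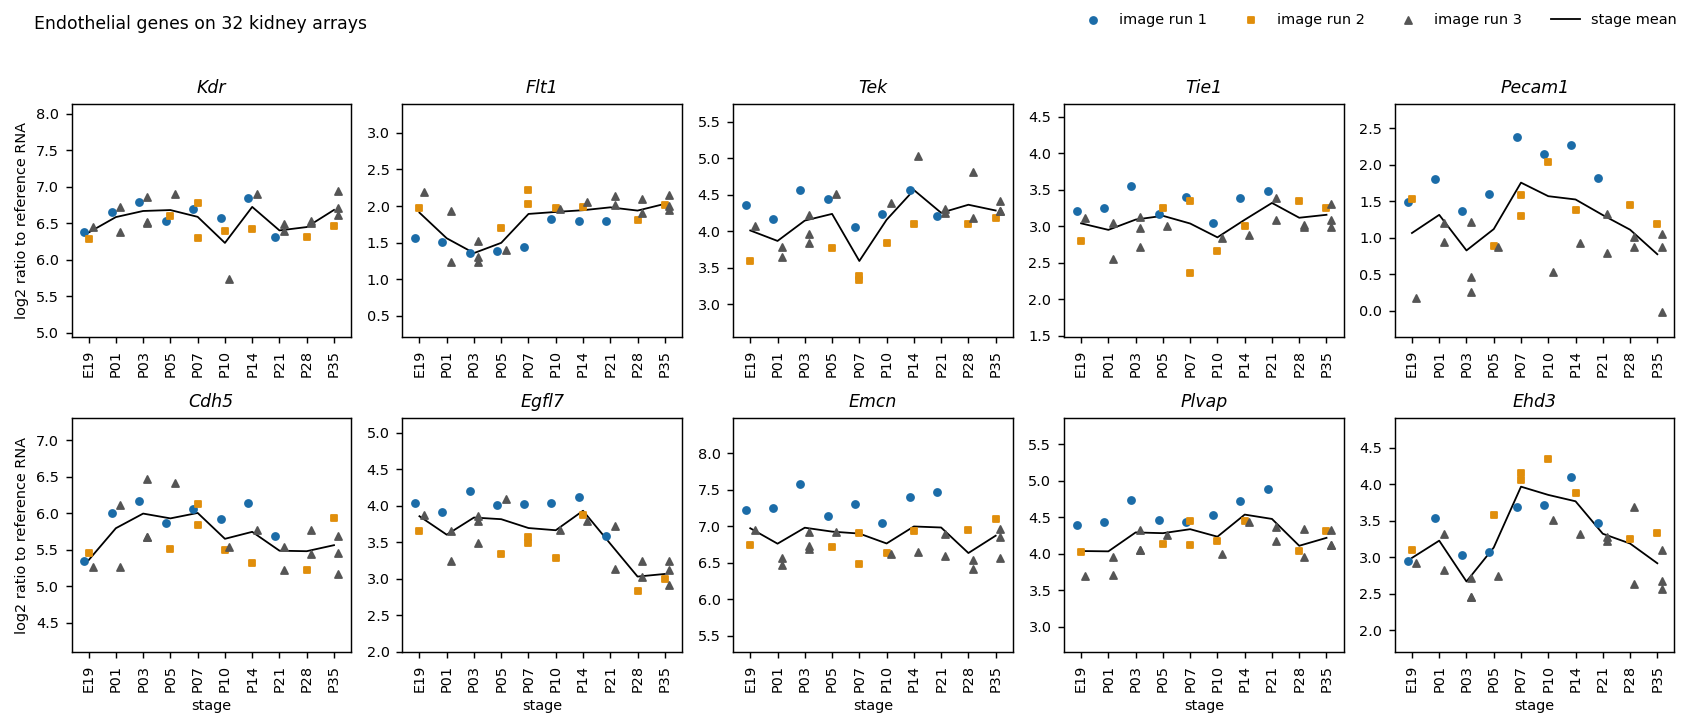
Log2 ratio of kidney over reference RNA for each of the 10 genes (vertical axis, a span of the same height in every panel) by stage (horizontal axis), with 1 point per array in the colour and shape of its image run and a line through the stage means. Egfl7 lies at or below 3.24 on all 7 arrays of P28 and P35, Ehd3 is highest at P07, P10 and P14, and Pecam1 varies most between arrays of a stage.

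The receptor gene Flt1 was low just after birth and higher at later stages (F test, limma adjusted p = 0.0180). Its product binds VEGF-A tightly but signals weakly and is known as a decoy that limits signalling through the Kdr product. Flt1 had log2 ratios of 1.56, 2.19 and 1.97 at E19, of 1.51, 1.23 and 1.93 at P01, of 1.52, 1.36, 1.30 and 1.24 at P03, and of 1.40, 1.39 and 1.70 at P05. At P07 the arrays had 2.02, 2.21 and 1.44, and at P10 they had 1.96, 1.82 and 1.97. P14 gave 2.05, 1.98 and 1.79, P21 gave 2.01, 2.14 and 1.79, P28 gave 1.80, 1.91 and 2.10, and P35 gave 2.02, 1.95, 2.16 and 2.00. From P10 on every array lay at or above 1.79, while at P03 and P05 all 7 lay at or below 1.70. The arrays of E19, of P01 and of P07 spanned both ranges. These stages were picked after the values were seen, and the share of all genes split in this way was not counted. Over the 10 late arrays the lowest, median and highest values were 1.79, 2.00 and 2.16, against 1.23, 1.52 and 2.19 over the 10 early arrays. The 2 periods overlap through E19 and P01. The late minus early change was 0.38 ± 0.11 (SE, limma adjusted p = 0.00480). This was 1 of 2 genes called in that comparison, against 55.3% of all genes, or 29.5% upward. Between the outermost stages Flt1 did not pass the test, at 2.03 ± 0.09 (SD, n = 4) at P35 and 1.91 ± 0.32 (SD, n = 3) at E19, a difference of 0.12 with a 95% interval of -0.26 to 0.50 (limma adjusted p = 0.645).

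The Flt1 change rests on which spots are used. Of its 5 spots, the 3 measured on all arrays gave late minus early changes of 0.54, 0.36 and 0.23, of which the first passed at spot level, with a limma adjusted p = 0.00241. A further spot, measured on 26 arrays, gave -0.49. With every measured spot averaged the change was 0.03, with exact zeros kept 0.10, and after quantile normalization 0.27 (limma adjusted p = 0.0581), none of them a call. The F test of Flt1 also missed the threshold in these settings, with limma adjusted p = 0.364, 0.107 and 0.120 in that order, and with the single spot of highest mean ratio, at 0.0590. Without P03 replicate 4 it was 0.0507, which is no call.

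Kdr, the main signalling receptor of VEGF-A on endothelium, showed no change that passed the test in any of the 7 comparisons without quantile normalization or array weights. Its stage means lay between 6.23 at P10 and 6.72 at P14. It had 6.47, 6.70, 6.95 and 6.61 at P35, against 6.37, 6.45 and 6.29 at E19. Every P35 array was above every E19 array, and Egfl7 was the other of 2 genes whose P35 and E19 arrays did not overlap, against 43.1% of all genes. The difference of 0.31 had a 95% interval of -0.07 to 0.69 (limma adjusted p = 0.195). In late minus early the change was -0.03, with an interval of -0.26 to 0.19. The low point at P10 comes from 1 array, at 5.73, on which 1 of the 10 Kdr spots read 1.07 while the other 9 lay between 5.89 and 6.48.

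Flt1 and Kdr bind the same ligand, and the gap between their log2 ratios is given as a description, since the pair was chosen after its values were seen. Flt1 minus Kdr was -4.54 ± 0.15 on the 10 late arrays and -4.97 ± 0.41 on the 10 early arrays (SD), and the ranges overlap. This restates the Flt1 change beside a Kdr change near 0, and rests on the same choice of Flt1 spots. Tek minus Tie1 was 1.11 ± 0.32 late and 0.99 ± 0.21 early (SD). The size of a gap depends on the reference RNA and has no meaning of its own.

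Tek and Tie1, the angiopoietin receptor and its partner, did not pass the F test. Tek had stage means between 3.59 at P07 and 4.56 at P14, and its late minus early change was 0.29, with a 95% interval of -0.02 to 0.60 (limma adjusted p = 0.101). That change was a call in 3 other settings: 0.36 with the image run as a block (limma adjusted p = 0.00365), 0.53 with array weights (limma adjusted p = 0.000628) and 0.43 within image run 3 (limma adjusted p = 0.0238). Within run 1 it had the opposite sign, at -0.16, and within run 2 it was 0.55, both given without a test. Tie1 lay between 2.85 at P10 and 3.32 at P21 and changed by 0.17, with an interval of -0.11 to 0.45.

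Egfl7 fell late, more than any other of the 10 genes (F test, limma adjusted p = 0.00705). Its log2 ratio was 4.03, 3.87 and 3.66 at E19, 3.91, 3.65 and 3.24 at P01, 3.86, 4.197, 3.49 and 3.79 at P03, and 4.10, 4.00 and 3.34 at P05. The middle stages stayed in that range, with 3.49, 3.56 and 4.02 at P07, 3.66, 4.04 and 3.28 at P10, and 3.79, 3.87 and 4.12 at P14. At P21 the arrays had 3.13, 3.72 and 3.59, at P28 they had 2.83, 3.01 and 3.23, and at P35 they had 2.99, 3.11, 3.24 and 2.91. All 7 arrays of P28 and P35 were below all 3 arrays of E19, and the P21 arrays spanned both ranges. The pooling of P28 and P35 was picked after the values were seen, and its share over all genes was not counted. The P35 minus E19 change was -0.79 ± 0.22 (SE, limma adjusted p = 0.00554), the only call among the 10 genes in that comparison, against 40% of all genes, or 19% downward. Late arrays had a lowest, median and highest value of 2.83, 3.12 and 3.72, against 3.24, 3.83 and 4.197 for early arrays, and the periods overlap. None of the 10 genes separated all late from all early arrays, against 17.7% of all genes. Egfl7 fell by 0.57 ± 0.13 on the log2 scale in late minus early (SE, limma adjusted p = 0.000564). Single image runs hold different stages of the periods. The change was -0.46 in run 1, whose only late array is from P21, and -0.75 in run 2, whose early array is from E19 and whose late arrays are from P28 and P35. These 2 runs leave 0 and 1 residual degrees of freedom, so they are given as values without a test. Run 3, which holds all 6 stages of both periods, gave -0.47 (limma adjusted p = 0.0250). Egfl7 has 1 spot, so no second probe bears on it.

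Ehd3 differed between stages (F test, limma adjusted p = 0.00208) and was higher in the middle of the series than the average of its ends. It had 2.94, 2.92 and 3.10 at E19, 3.53, 2.83 and 3.32 at P01, 2.72, 3.03, 2.45 and 2.45 at P03, and 2.75, 3.07 and 3.57 at P05. At P07 it had 4.06, 4.15 and 3.69, at P10 it had 3.50, 3.71 and 4.34, and at P14 it had 3.32, 3.88 and 4.09. The values were 3.21, 3.28 and 3.46 at P21, 3.24, 2.63 and 3.68 at P28, and 3.33, 2.67, 3.10 and 2.56 at P35. The 3 P07 arrays were above all arrays of E19, P01, P03, P05, P21, P28 and P35, at 3.687 or more against a highest of 3.685 at P28. This narrow split was picked after the values were seen, and its share over all genes was not counted. All 3 P07 arrays come from image runs 1 and 2, in which Ehd3 was higher than in run 3 by 0.31 and 0.53. Over the 9 middle arrays the lowest, median and highest values were 3.32, 3.88 and 4.34, against 2.45, 2.93 and 3.53 early and 2.56, 3.23 and 3.68 late, so the middle overlaps both ends. The mean of P07, P10 and P14 exceeded that of the 6 stages at both ends by 0.81 ± 0.14 (SE, limma adjusted p = 0.000236). Ehd3 was the only one of the 10 genes called there, against 12.2% of all genes, or 8.77% upward. Late minus early gave 0.18, with a 95% interval of -0.14 to 0.50. With the image run as a block the middle excess was 0.62. Within runs it was 0.59 in run 1 and 0.88 in run 2, both without a test. In run 3, which holds no P07 array, it was 0.46 (limma adjusted p = 0.375). Ehd3 also has 1 spot.

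The junction and surface genes did not pass the F test. Cdh5, which encodes VE-cadherin of adherens junctions, lay between 5.35 at E19 and 6.00 at P07, and its late minus early change was -0.21, with an interval of -0.52 to 0.10. Its 2 spots differ: 1 gave -0.57 (limma adjusted p = 0.0444 at spot level) and the other 0.16. Emcn had the narrowest range, 6.63 at P28 to 7.00 at P14, with a late minus early change of -0.08 and an interval of -0.39 to 0.24. Plvap lay between 4.03 at P01 and 4.53 at P14 and changed by 0.15, with an interval of -0.11 to 0.41. With the image run as a block, Plvap was called as higher late by 0.23 (limma adjusted p = 0.0131).

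Pecam1, the gene of the junction protein CD31 that platelets and leukocytes also carry, varied most between arrays. Its stage means lay between 0.77 at P35 and 1.75 at P07. At P10 its arrays had 0.53, 2.14 and 2.03, and at E19 they had 1.49, 0.17 and 1.53. Its 10 spots measured on all arrays agreed closely within an array, with a median SD of 0.10, while the SD between arrays of a stage was 0.59. For Kdr, also with 10 such spots, these values were 0.19 and 0.22. The late minus early change of Pecam1 was -0.0032, with an interval of -0.53 to 0.52.

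The shorter steps gave no call among the 10 genes. For P01 minus E19 this was 0 of 10 genes against 1.37% of all genes, for P07 minus P01 against 7.04%, for P21 minus P07 against 15.1%, and for P35 minus P21 against 0.853% (limma, adjusted p under 0.05). At an unadjusted p under 0.05 the counts were 0, 1, 2 and 0 in that order: Ehd3 at 0.74 for P07 minus P01, and Tek at 0.66 and Ehd3 at -0.64 for P21 minus P07.

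**Figure D2:**
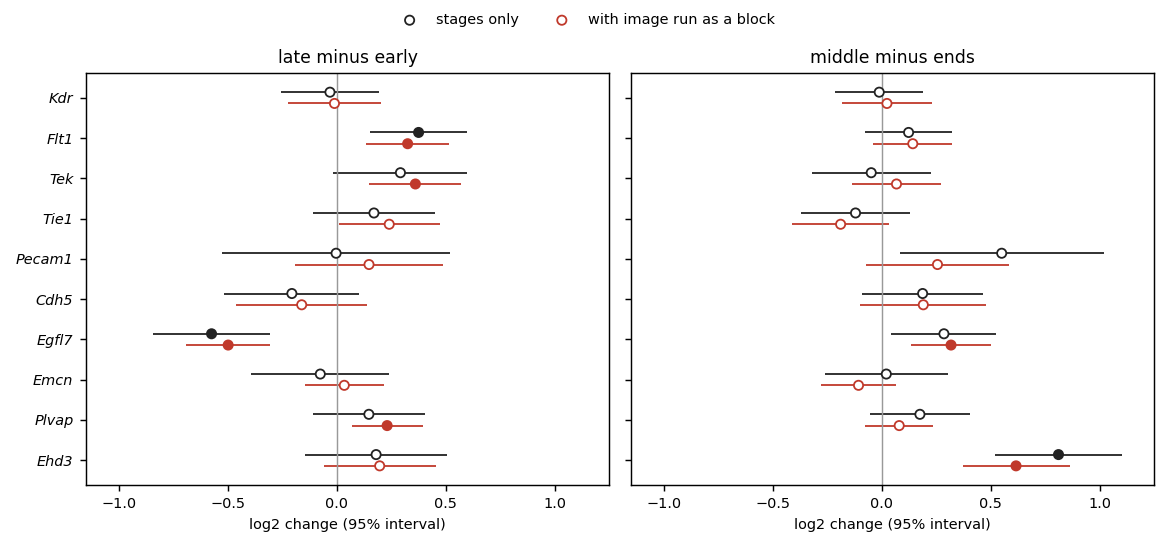
Log2 change with its 95% interval (horizontal axis) for each gene (vertical axis), late minus early on the left and middle stages minus both ends on the right, from the fit with stages alone (black) and with the image run as a block (red). Filled points passed the adjusted p threshold of 0.05: Flt1 and Egfl7 on the left and Ehd3 on the right with stages alone, with Tek and Plvap added on the left and Egfl7 on the right by the block. A gene that falls only late can also pass on the right. Egfl7 had a mean of 3.76 in the middle and 3.77 early, against 3.18 late.

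Many of the 10 genes also differed by image run, at shares near those of all genes, while Kdr and Cdh5 passed neither comparison below. The labels give each array an image number, and these numbers fall into 3 runs; run 1 holds no P28 or P35 array, run 2 none of P01, P03 or P21 and run 3 none of P07, so runs are unevenly spread over stages. With stage in the fit, 7 of 10 genes differed between run 1 and run 3, against 57.5% of all genes. Pecam1 was higher in run 1 by 1.02, Emcn by 0.64, Plvap by 0.48, Tie1 by 0.39, Ehd3 by 0.31 and Egfl7 by 0.29, and Flt1 was lower, at -0.24. Between run 2 and run 3, 3 genes differed, against 26.3% of all genes: Pecam1 at 0.57, Ehd3 at 0.53 and Tek at -0.46. For Pecam1, Emcn, Plvap, Tie1 and Ehd3 the run 1 minus run 3 differences exceed the late minus early change. With the run as a block, the F test called 5 of the 10 genes (58.3% of all genes), adding Tek and Plvap, and late minus early called 4 (63.5% of all genes), Flt1, Tek and Plvap upward and Egfl7 downward. Flt1 in run 2 alone, where the early period has only an E19 array, gave a late minus early change of -0.06, without a test, against 0.31 in run 1 and 0.33 in run 3.

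**Figure D3:**
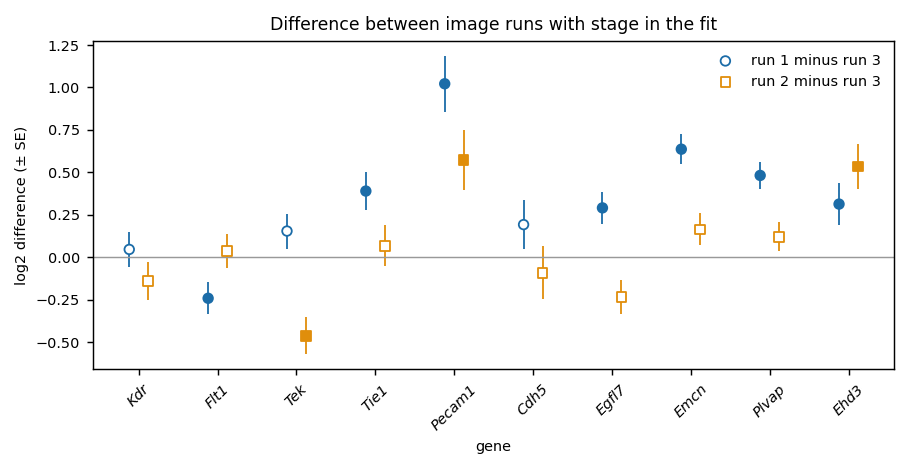
Log2 difference between image runs (vertical axis, with SE) for each gene (horizontal axis) with stage in the fit, for run 1 minus run 3 (circles) and run 2 minus run 3 (squares), filled where the adjusted p was under 0.05. Pecam1 has the largest difference, 1.02 in run 1 and 0.57 in run 2.

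Many genes of the other vascular lists fell over the same arrays. Whole kidney values do not show in which cells a listed gene fell. Of 20 further pan-endothelial genes tested, 12 fell and 1 rose in late minus early, with a median of -0.55 against 0.07 for all genes, of which 25.8% fell. Mcam, an adhesion molecule shared with smooth muscle and pericytes, fell by 1.58, and Myct1, an endothelial gene, by 1.32, while Adgrl4, an adhesion receptor of vessels, rose by 1.16. Of 12 transcription factor genes, 6 fell and Epas1, a hypoxia-inducible factor also made outside vessels, rose by 0.53; the median was -0.58. The ETS-family gene Fli1 fell by 1.24 and Ets1 by 0.68, while Erg, also of that family, changed by 0.07 without passing the test. Lyl1, a blood and vessel factor, fell by 1.44 and Sox7 by 0.99.

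Among arterial and Notch-pathway genes 5 of 7 fell and none rose, with a median of -0.90, the lowest of the 6 further endothelial lists. Hey1, a Notch target, fell by 4.37, with every late array at or below -1.05 and every early array at or above 1.95. Efnb2, the arterial ephrin that developing nephrons express too, fell by 1.85, Hey2 by 1.22, Gja4 by 0.90 and Notch4 by 0.46. Of 6 venous and lymphatic genes, Lyve1 fell by 2.42, Nr2f2 by 0.96 and Ephb4 by 0.63, while Selp rose by 0.47. Of 5 glomerular endothelial genes, Tbx3 fell by 1.97, Sema5a by 0.66 and Smad6 by 0.47. Among 11 ligands and co-receptors of the VEGF and angiopoietin systems, Vegfa rose by 1.12 and Vegfb by 0.59, while Vegfc fell by 1.00, Vegfd by 0.44 and Nrp2 by 0.42. Epas1, Ets1, Erg, Gja4, Notch4, Selp, Vegfd and Nrp2 are named here after their values were seen. For P35 minus E19, 9 of 21 pan-endothelial, 7 of 12 transcription factor, 4 of 8 arterial, 3 of 7 venous and lymphatic and 3 of 5 glomerular genes fell and none rose, against 19% of all genes down and 21.1% up. Of 11 ligands and co-receptors 4 fell and none rose, among them Pgf by 1.41, Vegfc by 0.96 and Vegfd by 0.71. With the image run as a block, 1 pan-endothelial gene and 3 ligands and co-receptors rose, and the counts that fell were the same. In that fit 49.5% of all genes were called in either direction.

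Markers of other cells were read over the same periods, in which 29.5% of all genes rose and 25.8% fell. All 8 tested cell cycle genes fell, with a median change of -2.54, and the list's median per array was -4.32 to -3.00 late and -1.76 to -0.97 early. Of 10 smooth muscle and pericyte markers 6 fell, and their median per array was -0.30 to 0.76 late and 0.75 to 1.66 early. All 4 tested adipose markers rose, with a median change of 3.36. Of the others, 2 of 7 leukocyte markers rose, 2 of 5 platelet markers fell and 2 of 4 erythroid markers rose. For the proximal tubule 3 of 8 markers rose. With the image run as a block 8 of 8 rose, and 63.5% of all genes were called in either direction. Of 7 podocyte markers, Clic5 rose by 1.26 and Wt1 fell by 2.63. The part of these other cells in the endothelial values was not tested.

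The wider vascular lists were compared in the same way, the mean of P07, P10 and P14 against the mean of the 6 end stages, which a gene that falls only late can also pass. Upward calls were made for 9 of 20 pan-endothelial, 5 of 12 transcription factor, 4 of 11 ligand and co-receptor, 0 of 7 arterial, 1 of 6 venous and lymphatic and 2 of 5 glomerular endothelial genes, against 8.77% of all genes, and none of them was called downward. With the image run as a block, 7 of the 20 pan-endothelial and 2 of the 7 arterial genes were called upward, while 14.8% of all genes were called in either direction. Cd34, a surface protein that blood progenitors share, had the largest change among the first 3 lists, at 1.01. The pan-endothelial median per array was 2.60 to 3.12 in the middle, 2.23 to 2.86 early and 1.68 to 2.73 late, so the middle overlaps both. Among other cells, 4 of 10 smooth muscle and pericyte markers, 5 of 8 cell cycle genes, 2 of 7 leukocyte, 2 of 5 platelet and 1 of 8 proximal tubule markers were called upward. The cell cycle median per array was -2.22 to -1.69 in the middle, above all late arrays, at -4.32 to -3.00, and mostly below the early arrays, at -1.76 to -0.97. The smooth muscle and pericyte list had a median over arrays of 1.34 in the middle, 1.42 early and 0.24 late. Their part in the Ehd3 value was not tested.

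**Figure D4:**
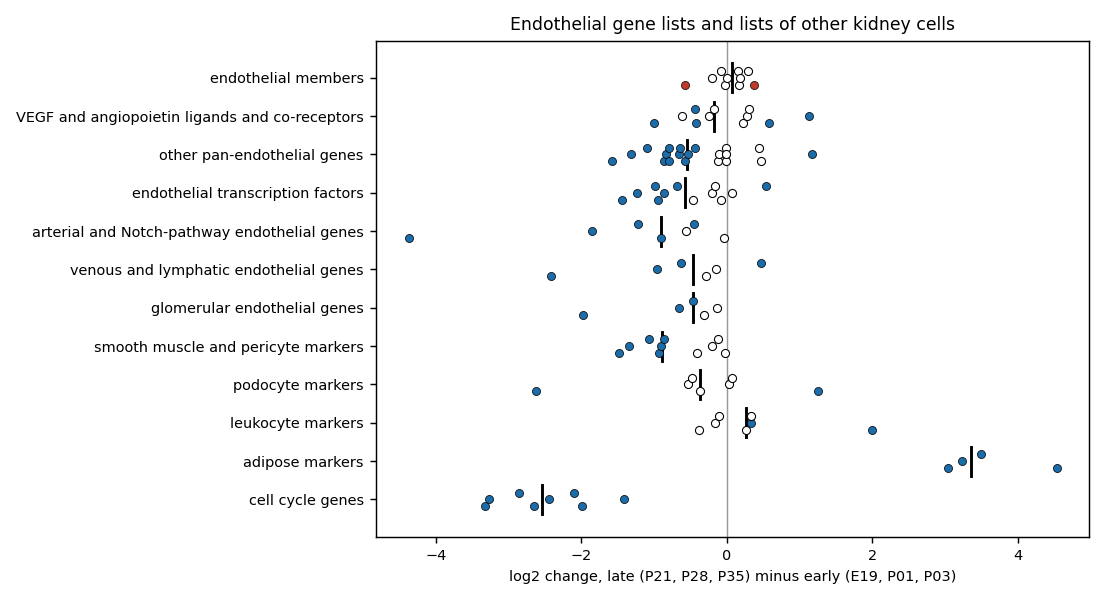
Log2 change in late minus early stages (horizontal axis), 1 point per gene, for the 10 endothelial genes (red where called), further endothelial lists and markers of other cells (blue where called), with open points for genes that did not pass and a bar at each list's median. The 10 genes lie between -0.57 and 0.38, while Hey1 among the arterial genes reaches -4.37.

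By the correlation of stage means over the 10 stages, the genes most like Egfl7 were Sox4 (Pearson r = 0.98), Gja4 (0.97) and Ltbp3 (0.97). Those most like Flt1 were Plek (0.96), P4ha1 (0.96) and Helz2 (0.94), and those most like Ehd3 were Prkch (0.96), Gpc4 (0.93) and Wdr13 (0.93). Among the 10 genes, Ehd3 and Pecam1 had the most similar stage means (r = 0.96), and both were higher in runs 1 and 2 than in run 3, while Flt1 and Cdh5 were the most opposed (r = -0.68). These are descriptions over 10 stage means that share their arrays.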

How the data were processed

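The authors deposited 1 log ratio per spot and array for 32 arrays, read here as log10. Per the labels, kidney RNA carried Cy5 and the universal reference RNA Cy3, with no dye swap named. Scanner software, background correction, dye normalization and the direction and base of the ratio are not given in the sources used; the base was read from the values, which run from -3.25 to 4. The deposited values cover 45220 spots, 202 of them without a value.

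Values were multiplied by 3.32 to give log2. Exact zeros, 10.8% to 23.1% of an array, were taken as not measured. For each gene, spots measured on all 32 arrays were averaged, or else the spot measured on most was taken; 16195 to 17981 genes were measured on an array, and spot intensities were not used here. Of the 10 genes, Kdr had 20 spots (10 measured on all arrays), Pecam1 11 (10), Flt1 5 (3), Cdh5 and Tek 2 each, and the others 1.

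A mean per stage was fitted to all arrays with limma (version 3.58.1, under R 4.3.3; tables were read with data.table, version 1.17.8), after a test on simulated data; a period is the mean of its stages. Genes needed at least 2 arrays in every stage of a comparison. P-values were adjusted over all genes tested by Benjamini-Hochberg, with a threshold of 0.05. Figures used matplotlib 3.10.9 in Python 3.11.15.

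All 10 genes are named. From each other list, named genes were drawn from the up to 3 past the test with the largest change in late minus early or P35 minus E19. Not all of these are named. Cd34, like the genes marked above, was named after its values were seen. For each gene past the F test, the 3 genes with the most similar stage means are named. The genes, lists and comparisons were chosen with earlier results of these data known. Alternatives changed the zeros, spot summary, normalization, array weights, image run, an Xist covariate, filters, stages fitted and single arrays.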

Additional observations from a re-analysis of the deposited data

How the results depend on the processing

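Leaving out each of the 32 arrays in turn kept 1 called gene of the 10 for P35 minus E19, 2 for late minus early and 0 for P01 minus E19, P07 minus P01 and P35 minus P21; the counts ranged from 0 to 1 for P21 minus P07 (Tek, without P07 replicate 3), from 1 to 2 for middle minus ends (Pecam1 added without P10 replicate 1) and from 2 to 3 for the F test (Flt1 lost without P03 replicate 4). Other settings changed the counts as follows; the cause was not tested. With the image run as a block the counts were 2 for P35 minus E19 and 4 for late minus early, against 49.5% and 63.5% of all genes. They were 2 for middle minus ends and 5 for the F test, against 14.8% and 58.3%. Quantile normalization gave 2 for P35 minus E19 (Egfl7 and Emcn), both downward, as were 3084 of 17118 genes. For late minus early it gave 4, all downward (Kdr, Cdh5, Egfl7 and Emcn), as were 4049 of 16506 genes. Array weights gave 3 for P35 minus E19 (Kdr, Tek and Egfl7), 1 for P01 minus E19 (Flt1), 2 for P07 minus P01 (Flt1 and Ehd3), 3 for late minus early (Tek added), 2 for middle minus ends and 7 for the F test. Calls among all genes with these weights were 13115 of 16335 for the F test and 4787 of 16366 for middle minus ends. They were 2793 of 16984 for P01 minus E19 and 1968 of 16737 for P07 minus P01. The most called under any setting was 9272 of 17118 for P35 minus E19 and 10947 of 16506 for late minus early. Xist as a covariate gave 1 each for P07 minus P01 and P21 minus P07, Ehd3 in both. The single spot of highest mean ratio gave 3 for late minus early (Cdh5 added). Keeping exact zeros, or averaging all measured spots, gave 1 for late minus early (Egfl7). The F test lost Flt1 in both of these settings and with the single spot of highest mean ratio, leaving 2, and after quantile normalization, which added Emcn. Within image run 2, 8 arrays over 7 stages leave 1 residual degree of freedom, so its 0 calls for P35 minus E19, late minus early and middle minus ends, also among all genes, say nothing about stability. Within run 3 0 passed for P35 minus E19 (Egfl7 at -0.78, limma adjusted p = 0.0646) and for middle minus ends, and 2 for late minus early (Tek and Egfl7). Shares of all genes are not given for the Xist, spot and zero settings, nor for late minus early in run 3. Those counts are therefore not read against all genes. The one called change that turned sign was Flt1 in late minus early within run 2, at -0.060. A median over spots, chosen after seeing the data, left every count of called genes as it was. Among all genes, P01 minus E19 gave 233 calls, 48 to 239 with an array left out, 0 with only its stages fitted, 60 within run 3, 655 with the block and 2793 with array weights. P35 minus P21 gave 147 calls, 48 to 232 with an array left out, 4 with only its stages, 25 within run 3, 364 with the block and 1148 with weights. P07 minus P01 gave 1178, 695 to 1272 with an array left out, 122 with only its stages and 1968 with weights; P21 minus P07 gave 2546, and 1526 with only its stages; middle minus ends gave 1991, 285 within run 3 and 4787 with weights; the F test gave 7131, and 13115 with weights. No paired analysis was possible because replicate numbers only name arrays. Spot intensities were not used, so background and saturation could not be checked, and 3 or 4 arrays a stage limit the precision.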
